A study of Homo sapiens with 2 samples.

Results

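Chemokine and chemokine receptor genes were examined for CpG methylation in the human neuroblastoma line SH-SY5Y. A gene was included when its symbol is CCL, CXCL, CCR or CXCR followed by digits alone, or is XCL1, XCL2, XCR1, CX3CL1 or CX3CR1. It had to lie on an autosome and hold at least 3 CpG positions in its promoter or gene annotation, each with at least 10 reads in both libraries. This gave 55 genes, 38 ligands and 17 receptors, of 29400 autosomal genes measured in the same way. They held 1989 of 2458234 autosomal CpG positions, and 54 of them had a measured promoter, of 25074. CXCL9 had only 2 such positions and was not described, nor was 1 matching symbol that lies off the autosomes.

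SH-SY5Y is an established line with features of sympathetic neuroblasts, and all values come from this 1 line. The control cells received DMSO, the solvent, and the other cells received Mdivi-1, a compound known as a blocker of mitochondrial division. Dose and duration are not given in the sources used here. Each group held 1 library of bisulfite-converted DNA enriched by methyl capture, so no difference between the 2 libraries has a replicate check.

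Chemokines are small secreted or membrane-bound proteins that attract cells along a gradient, and are named CC, CXC, XC or CX3C after the spacing of their first cysteines. Their receptors are G protein-coupled and signal mainly through inhibitory G proteins. Most ligands are known for recruiting leukocytes during inflammation, whereas CXCL12 with CXCR4 also guides migrating neural cells, and CX3CL1 on neurons acts on CX3CR1 of microglia. Many of the genes lie in clusters that arose by duplication.

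Member positions were covered by 34.3 reads on average with DMSO and 42.5 with Mdivi-1. Levels are means over CpG positions, and each difference is the Mdivi-1 level less the DMSO level, in percentage points (points). The error after each difference is 1 counting error, computed with the CpGs of each 200-bp block taken to share their reads; it does not cover variation between cultures. Promoters of the neuroblast marker genes had a median level of 6.62% with DMSO and 4.81% with Mdivi-1 over 10 genes such as HAND2. Promoters of 10 leukocyte marker genes were at a median of 44.3% and 44.8%, those of 6 mesenchymal genes at 16.5% and 19.2%, and those of 3 fibroblast genes at 90.1% and 90.2%. Expression was not analysed here.

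The chemokine genes were less methylated than the captured genome, and the gap lay outside CpG islands. Their mean level was 31.5% with DMSO and 32.2% with Mdivi-1, against 42.8% and 43.2% over all autosomal positions. In the open sea, the CpG-sparse sequence away from islands, their 1025 positions were at 32.6% and 33.6%, and all autosomal open-sea positions at 56.5% and 57.2%. By medians in the control, the open-sea positions were at 14.3% in the chemokine genes and 75% over all, and with each gene weighted alike the values were 22.5% over 46 chemokine genes and 71.3% over 20057 genes. None of the 46 was above 80% in the open sea, whereas 43.7% of all genes were. Open-sea positions outside promoters were at 33.9% in the chemokine genes, against 64.7% in all genes, and open-sea promoter positions at 31.0% against 42.8%.

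Island positions showed the opposite order. The 587 island positions of the chemokine genes averaged 31.7% with DMSO and 32.3% with Mdivi-1, against 28.7% and 28.9% for all autosomal islands. Within promoters the gap was wider, with island positions at 24.4% in the chemokine genes and 13.6% in all genes. Of 8 chemokine genes with a measured promoter island, 3 were under 20%, and the median was 23.4% with DMSO and 18.5% with Mdivi-1. In the Mdivi-1 library 2 of the 8 were higher and 6 lower, with a median difference of -1.91 points. Over all 276 island promoter positions of the family, the difference was -0.475 points with an error of 1.84 points. With pooled reads it was 0.672 points. Of 12912 promoter islands of all genes, 53.0% were higher, with a median difference of 0.0528 points. The median level of these 12912 was 1.47% in the control, and 80.7% were under 20%. Ligand islands were at 39.5% in the control, and the islands of the receptors, which belong to CXCR4 and CCR10, at 6.25%. Exonic positions were at 39.3% against 59.8% in all genes, and 3' UTR positions at 36.3% against 66.6%. Island shelves were at 20.9% against 56.0%, but 53 of the 98 shelf positions belong to CCR10, and without it the value was 44.6%.

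**Figure D1:**
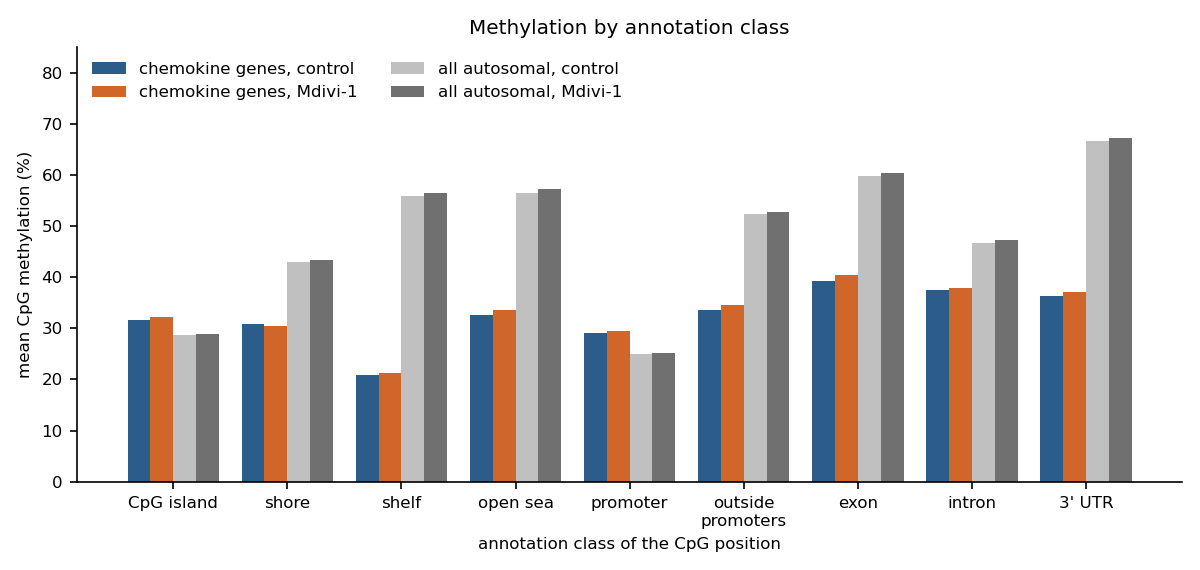
Mean CpG methylation in percent (y axis) by annotation class (x axis), with bars for the chemokine genes and for all autosomal positions in each library. Open-sea bars are at 32.6% for the chemokine genes and 56.5% for all positions in the control, whereas island bars are close, at 31.7% and 28.7%.

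Single genes ranged from almost unmethylated to highly methylated. In the control, 21 of 55 genes were under 20%, 33 were between 20 and 80% and 1 was above 80%, whereas 14.0% of all genes were above 80%. Both roles were split in this way, with 14 of 38 ligands and 7 of 17 receptors under 20%. The median gene was at 25.3% with DMSO and 26.8% with Mdivi-1, against 32.4% and 32.7% for all genes. No gene differed between the libraries by more than 5.32 points.

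**Figure D2:**
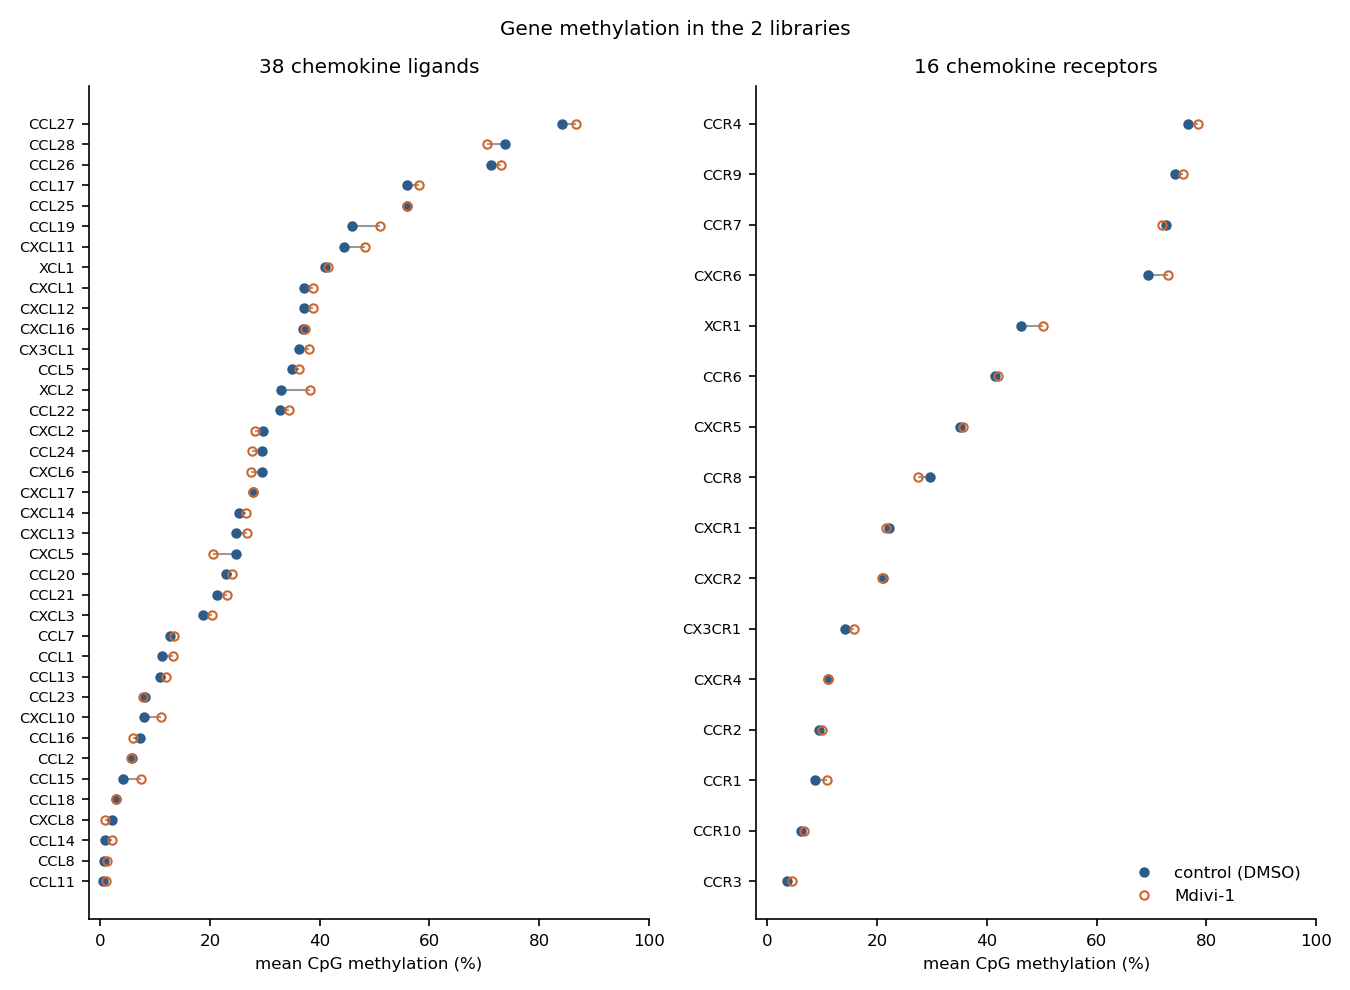
Mean CpG methylation in percent (x axis) of 38 ligands and 16 of the receptors (y axis), with filled points for the control and open points for the Mdivi-1 library. Levels run from 0.436% in CCL11 to 84.1% in CCL27, and the points of a gene lie within 5.32 points of each other.

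The 3 lowest ligands lay in the CC clusters of chromosome 17, followed by CXCL8 on chromosome 4. CCL11, or eotaxin, an attractant of eosinophils (chromosome 17, 32611291 to 32613299, hg19), was at 0.436% with DMSO and 1.01% with Mdivi-1 over 10 CpGs. CCL8, a monocyte attractant, was at 0.717% and 1.18% over 5 CpGs, all of them in its promoter. CCL14, a ligand of CCR1, was at 0.913% and 2.13% over 12 CpGs. The differences of these genes, 0.578, 0.461 and 1.22 points, had counting errors of 0.623, 1.09 and 1.18 points. CCL2, the main monocyte attractant (32580870 to 32582829), was at 5.83% and 5.60% over 19 CpGs, and a single CpG reached 65.2% in the control.

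The 6 genes from CCL2 to CCL1 span 110 kb of chromosome 17, and their 59 positions, all open sea, averaged 6.91% with DMSO and 7.55% with Mdivi-1. No gene of the group was above 12.8% in the control. The 27 other open-sea positions in or within 100 kb of the cluster averaged 15.0%. The second group of chromosome 17, CCL5, CCL16, CCL14, CCL15, CCL23 and CCL18, spans 196 kb, and its 93 positions were at 10.5% and 11.1%. The 55 other open-sea positions in or within 100 kb of it averaged 57.6% in the control. Many of them lay between CCL5 and CCL16. A dense stretch there, 46.5 to 46.7 kb from the first CpG of CCL5, held levels of 68.9 to 98.2% and weighs on this mean. Across the 22 loci of the family with at least 3 open-sea positions of each kind, the chemokine positions were below the other open-sea positions at 15 and above them at 7. CCR7, at 72.6% against 46.6%, and CXCL12, at 28.8% against 6.81%, were among those above. CCL5, or RANTES, an attractant of T cells, stood apart in that group at 34.9% and 36.2%, with its 5 promoter CpGs at 7.17% and 7.22%. CCL15, a ligand of CCR1, was at 4.19% and 7.38% over 19 CpGs, a difference of 3.19 points with an error of 1.99 points, and its promoter was at 6.73% and 12.5%. At a minimum of 20 reads the difference of CCL15 was 1.51 points.

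CXC ligands on chromosome 4 covered a wide range. CXCL8, or interleukin 8, an attractant of neutrophils (74606108 to 74608509), was at 2.10% with DMSO and 0.889% with Mdivi-1 over 9 CpGs, and no CpG was above 7.69% in the control. Its neighbours CXCL6, CXCL1, CXCL5, CXCL3 and CXCL2, neutrophil attractants that share receptors with it, hold islands or shores and lay between 18.8 and 37.2% in the control. Over the 6 genes and 204 positions, the levels were 26.1% and 25.1%, and 2 genes were higher and 4 lower in the Mdivi-1 library. CXCL10 and CXCL11, interferon-induced ligands of T cells in another group of chromosome 4, were at 8.0% and 44.5% with DMSO and at 11.01% and 48.3% with Mdivi-1. The 106 other open-sea positions in or within 100 kb of them averaged 72.1%.

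**Figure D3:**
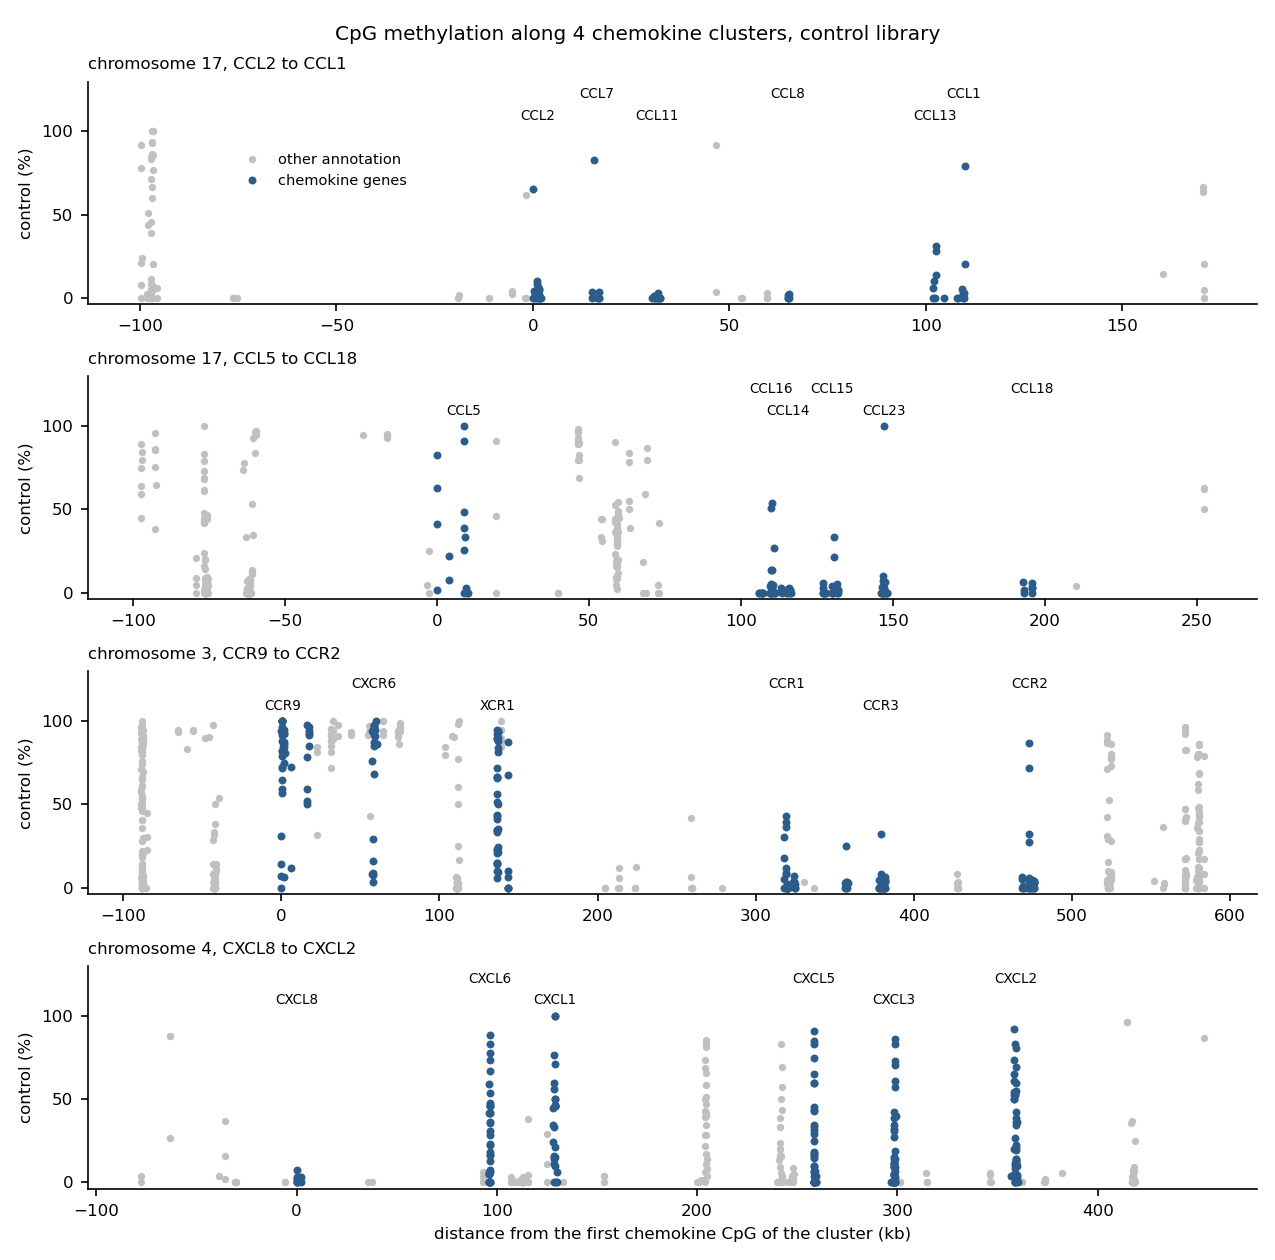
Methylation of single CpGs in the control library in percent (y axis) against distance in kb from the first chemokine CpG (x axis) for 4 clusters, with chemokine genes in blue and positions of other annotation in grey. Most blue points of the chromosome 17 clusters lie near 0, the chromosome 3 receptors change from high at CCR9 to low from CCR1 on, and the chromosome 4 island genes spread over the whole range.

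Receptors on chromosome 3 split along the chromosome. CCR9, the receptor that directs lymphocytes to the gut (45926009 to 45943686), was at 74.2% with DMSO and 75.8% with Mdivi-1 over 45 CpGs. CXCR6, the receptor of CXCL16, was at 69.4% and 73.0% over 22 CpGs, all of them annotated as intronic. XCR1, the receptor of XCL1 and XCL2 on dendritic cells, was at 46.3% and 50.2% over 42 CpGs. The 3 receptors described next were low: CCR1, a receptor of inflammatory CC ligands, was at 8.61% and 10.97%, CCR3, the eotaxin receptor, at 3.51% and 4.43%, and CCR2, the receptor of CCL2, at 9.46% and 10.04%. Differences of these 3 genes, 2.36, 0.914 and 0.573 points, had errors of 2.60, 1.24 and 2.09 points.

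Other receptors also covered a wide range. CCR4, a receptor of TH2 and skin-homing T cells (chromosome 3, 32992089 to 32996373), was the highest receptor at 76.6% and 78.5% over 13 CpGs. CCR7, which directs lymphocytes to lymph nodes, was at 72.6% and 72.0% over 59 CpGs, with exonic CpGs at 95.4% and 5' UTR CpGs at 24.7% in the control. CXCR4, the receptor of CXCL12 (chromosome 2, 136872068 to 136877704), was at 10.99% and 11.1% over 151 CpGs, with its 100 island CpGs at 8.34% and 7.98%. Its difference of 0.142 points had an error of 1.93 points, but parts of the gene differed in opposite directions. Its 33 upstream CpGs were at 12.5% and 17.9%, its 66 intronic CpGs at 7.54% and 6.44% and its 9 intergenic CpGs at 21.3% and 13.4%. CX3CR1, the microglial receptor (chromosome 3, 39306098 to 39324327), was at 14.1% and 15.8% over 38 CpGs, a difference of 1.75 points with an error of 2.05 points. CCR10, a receptor of CCL27 and CCL28, was at 6.16% and 6.63% over 120 CpGs.

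Ligands with known roles in the nervous system held mixed patterns within 1 gene. CXCL12 (chromosome 10, 44871273 to 44882535) was at 37.1% with DMSO and 38.8% with Mdivi-1 over 171 CpGs, a difference of 1.71 points with an error of 2.82 points, or 3.78 points with pooled reads. Its 106 promoter CpGs were at 31.0% and 32.6%, and its 57 intronic CpGs at 49.6% and 51.7%. CX3CL1 (chromosome 16, 57405429 to 57418446) was at 36.2% and 38.0% over 79 CpGs, with 26 island CpGs at 70.8% and 75.2% and 30 open-sea CpGs at 9.91% and 9.62%. Its 17 promoter CpGs were at 15.9% and 14.0%, so the promoter and the whole gene differed in opposite directions, by -1.91 and 1.79 points, both within their errors of 3.59 and 3.05 points. With reads pooled over the gene the difference was -2.31 points. CXCL14, a ligand expressed in epithelium and brain (chromosome 5, 134906485 to 134916258), was at 25.3% and 26.6% over 85 CpGs, a difference of 1.28 points with an error of 3.90 points. Its promoter differed by -2.92 points with an error of 5.58 points.

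Highly methylated ligands were fewer. CCL27, a skin chemokine of keratinocytes (chromosome 9, 34662283 to 34664010), was the highest of the 55 genes at 84.1% and 86.8% over 11 CpGs. CCL28, a mucosal chemokine that shares CCR10 with CCL27 (chromosome 5, 43396910 to 43413304), was at 73.8% and 70.4% over 66 CpGs. Its 47 island CpGs were at 87.1% and 83.8%, and its 8 open-sea CpGs at 22.0% and 15.9%. CXCL16, a membrane-bound ligand, had the reverse arrangement, with 87 island CpGs at 23.1% and 24.0% and 22 shore CpGs at 77.9% and 77.5%. Island CpGs were thus above the open-sea CpGs of the same gene in CX3CL1 and CCL28, and also in CXCL12, at 40.6% against 28.8% over 5 open-sea CpGs, but not in CXCL14, at 29.9% against 51.6% over 3.

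The remaining members lay between these extremes. CCL17 and CCL22, ligands of CCR4 that lie beside CX3CL1, were at 56.0% and 32.7% with DMSO and at 58.1% and 34.4% with Mdivi-1, whereas their receptor was at 76.6% in the control. CCL25, the ligand of CCR9, was at 56.0% in both libraries, and CCL26, an eotaxin, at 71.2% and 73.1%. The homing ligands CCL21 and CXCL13 were at 21.3% and 24.8% in the control, over 3 and 18 CpGs. The 3 CpGs of CCL21 all lay in its promoter and ranged from 2.44 to 58.6%. Their receptors CCR7 and CXCR5 were at 72.6% and 35.0% over 59 and 66 CpGs. CCL20, at 22.9% and 24.0%, was below its receptor CCR6, at 41.6% and 42.1%. CXCR1 and CXCR2, the neutrophil receptors of CXCL8, were at 22.2% and 21.1% in the control and at 21.7% and 20.9% with Mdivi-1. CXCL17, a mucosal ligand, was at 27.8% and 27.9%. All differences of these genes were within 1 counting error.

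Promoter sequence was examined next, since these promoters differ widely in CpG number. RefSeq promoter sequences of build GRCh38.p14, from 250 bases before to 50 after the start, matched 41 of the 55 genes, and where a gene had several starts the first listed was used. Their median CpG number was 4, against 14 over 26246 autosomal promoters, and 61.0% of them held fewer than 5 CpGs, against 30.6%. The 8 below were chosen to set CpG-poor promoters of low level beside CpG-poor promoters of high level and CpG-rich ones. Capitals mark each CpG, and each sequence reads 5′ to 3′ on the strand of its gene.
CCL8 (chr17:34319185-34319484, GRCh38.p14, plus strand): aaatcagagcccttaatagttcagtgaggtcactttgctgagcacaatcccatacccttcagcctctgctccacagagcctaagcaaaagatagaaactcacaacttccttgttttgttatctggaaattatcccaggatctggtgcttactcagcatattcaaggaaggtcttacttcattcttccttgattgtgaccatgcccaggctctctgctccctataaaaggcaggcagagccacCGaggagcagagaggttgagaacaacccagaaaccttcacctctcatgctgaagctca
CXCL8 (chr4:73740319-73740618, GRCh38.p14, plus strand): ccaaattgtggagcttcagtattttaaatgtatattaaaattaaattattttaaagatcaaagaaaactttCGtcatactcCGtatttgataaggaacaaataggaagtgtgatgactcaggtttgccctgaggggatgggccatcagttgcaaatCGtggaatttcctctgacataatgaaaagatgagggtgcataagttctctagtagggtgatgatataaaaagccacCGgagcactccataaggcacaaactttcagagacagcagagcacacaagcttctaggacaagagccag
CXCL10 (chr4:76023448-76023747, GRCh38.p14, minus strand): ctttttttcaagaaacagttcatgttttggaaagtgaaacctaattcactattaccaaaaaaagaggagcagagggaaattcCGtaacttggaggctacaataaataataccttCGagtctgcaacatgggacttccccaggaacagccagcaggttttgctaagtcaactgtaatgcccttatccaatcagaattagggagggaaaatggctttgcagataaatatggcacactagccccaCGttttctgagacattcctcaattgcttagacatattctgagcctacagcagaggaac
CCL27 (chr9:34662608-34662907, GRCh38.p14, minus strand): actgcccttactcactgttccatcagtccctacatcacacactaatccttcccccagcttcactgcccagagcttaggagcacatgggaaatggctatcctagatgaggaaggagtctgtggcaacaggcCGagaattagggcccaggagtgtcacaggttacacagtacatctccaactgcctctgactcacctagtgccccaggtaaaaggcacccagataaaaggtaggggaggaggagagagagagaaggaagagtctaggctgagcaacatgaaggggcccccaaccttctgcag
CCR4 (chr3:32951394-32951693, GRCh38.p14, plus strand): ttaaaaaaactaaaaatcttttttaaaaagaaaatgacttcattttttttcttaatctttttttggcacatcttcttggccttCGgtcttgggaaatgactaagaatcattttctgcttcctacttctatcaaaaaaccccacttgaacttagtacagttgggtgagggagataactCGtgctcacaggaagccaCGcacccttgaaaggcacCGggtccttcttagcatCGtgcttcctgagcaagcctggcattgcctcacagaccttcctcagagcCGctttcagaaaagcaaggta
CXCL5 (chr4:73998628-73998927, GRCh38.p14, minus strand): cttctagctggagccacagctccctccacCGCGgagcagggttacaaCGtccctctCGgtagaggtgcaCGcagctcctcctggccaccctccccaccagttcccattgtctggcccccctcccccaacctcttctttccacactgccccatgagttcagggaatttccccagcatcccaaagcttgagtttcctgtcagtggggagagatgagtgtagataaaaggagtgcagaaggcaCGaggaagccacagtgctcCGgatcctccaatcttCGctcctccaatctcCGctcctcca
CXCR4 (chr2:136118100-136118399, GRCh38.p14, minus strand): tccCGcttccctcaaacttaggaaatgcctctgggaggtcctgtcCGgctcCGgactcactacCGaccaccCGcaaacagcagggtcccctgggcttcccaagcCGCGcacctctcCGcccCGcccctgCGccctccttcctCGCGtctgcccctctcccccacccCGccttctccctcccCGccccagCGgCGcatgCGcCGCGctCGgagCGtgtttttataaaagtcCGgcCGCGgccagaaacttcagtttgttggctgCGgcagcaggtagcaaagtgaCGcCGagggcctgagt
CXCL12 (chr10:44385048-44385347, GRCh38.p14, minus strand): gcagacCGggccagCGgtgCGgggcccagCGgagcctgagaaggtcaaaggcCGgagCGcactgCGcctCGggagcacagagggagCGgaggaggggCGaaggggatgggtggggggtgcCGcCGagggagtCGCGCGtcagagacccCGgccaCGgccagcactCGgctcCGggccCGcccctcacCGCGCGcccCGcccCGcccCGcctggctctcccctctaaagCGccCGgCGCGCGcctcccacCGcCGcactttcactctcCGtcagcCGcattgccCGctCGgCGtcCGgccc
CpG number of the window and level of the annotated promoter did not follow each other in these genes. The windows of CCL8 and CCL27 hold 1 CpG each, and the annotated promoters of these genes were at 0.717% and 84.0% in the control. The window of CXCL8 holds 4 CpGs and that of CCR4 holds 6, with promoters at 3.28% and 80.2%. CXCR4 and CXCL12 hold 27 and 39 CpGs, with promoters at 10.5% and 31.0%. Across 40 genes with both values, Spearman's rho of CpG number and control promoter level was 0.0921; some of these genes are duplicates of each other and all share the libraries. Promoters with fewer than 5 CpGs in the window ranged from 0.717 to 84.0%, with a median of 19.6% over 24 genes. Those with 5 or more ranged from 10.5 to 80.2%, with a median of 29.0% over 16 genes. The deposited promoter positions are on hg19 and extend beyond these windows. CCL8 and CXCL11 each had 5 measured promoter positions, against 1 and 0 CpGs in their windows. Level and CpG number therefore cover different stretches, and a relation within the same stretch was not tested.

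Motifs in the same windows were counted on both strands. The letters TATAAA occurred in 12 of the 41 windows (29.3%), among them those of CCL8, CXCL8 and CXCR4, and in 12.0% of all 26246. The NF-κB consensus was counted as GGGRNWYYCC alone, where R is A or G, N any base, W A or T and Y C or T. It occurred in 10 of the 41 windows (24.4%) and in 5.73% of all. The 10 genes were CCL20, CCL22, CCR3, CXCL1, CXCL2, CXCL3, CXCL5, CXCL6, CXCL10 and CXCL11. Sites that depart from these letters were not counted. A window outside the 10 may still hold an NF-κB site. That of CXCL8, for example, holds TGGAATTTCC, which departs from the counted letters in its first base alone. Control promoter levels of these 10 genes ran from 4.23% in CCR3 to 44.5% in CXCL11. The windows of CXCL1, CXCL2 and CXCL3 come from close duplicates and are not independent.

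Differences between the libraries in gene means were small throughout the family. Parts of single genes differed more, in both directions. In CXCL14, 11 upstream CpGs differed by -10.7 points and 12 exonic CpGs by 10.7 points, and no error was computed for such parts. Positions that differed by 20 points or more made up 4.98% of the family's positions, beside 2.74% of all 2523693 positions. Over all 1989 positions, methylation was 0.677 points higher in the Mdivi-1 library with an error of 0.584 points, and 0.456 points higher over all autosomal positions. Ligands went from 33.5 to 34.2% and receptors from 28.6 to 29.3%, differences of 0.660 and 0.702 points with errors of 0.872 and 0.682 points. Of the 55 genes, 40 were higher and 15 lower in the Mdivi-1 library, that is 72.7% higher against 64.9% of all genes, and the median difference was 0.914 points against 0.335 points. With reads pooled in place of CpGs weighted alike, the family difference was 0.0564 points and that of the ligands -0.283 points.

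No gene met the rule of size, a mean difference of at least 10 points with at least 80% of its CpGs in that direction, which 0.245% of all genes met. No chemokine gene differed by more than 2 counting errors, against 0.5% of all genes. At 1 counting error 6 genes were higher and 0 lower, 10.9% of the family, beside 10.05% of all genes. Among the 54 promoters none met the rule of size, beside 0.435% of all promoters, and the median promoter difference was 0.269 points, beside 0.211 points. At 1 counting error 4 promoters were higher and 3 lower, 12.96% of the 54 beside 8.475% of all promoters. By direction, 7.41% were higher beside 5.71%, and 5.56% lower beside 2.76%. The family's other counts were near these background shares.

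**Figure D4:**
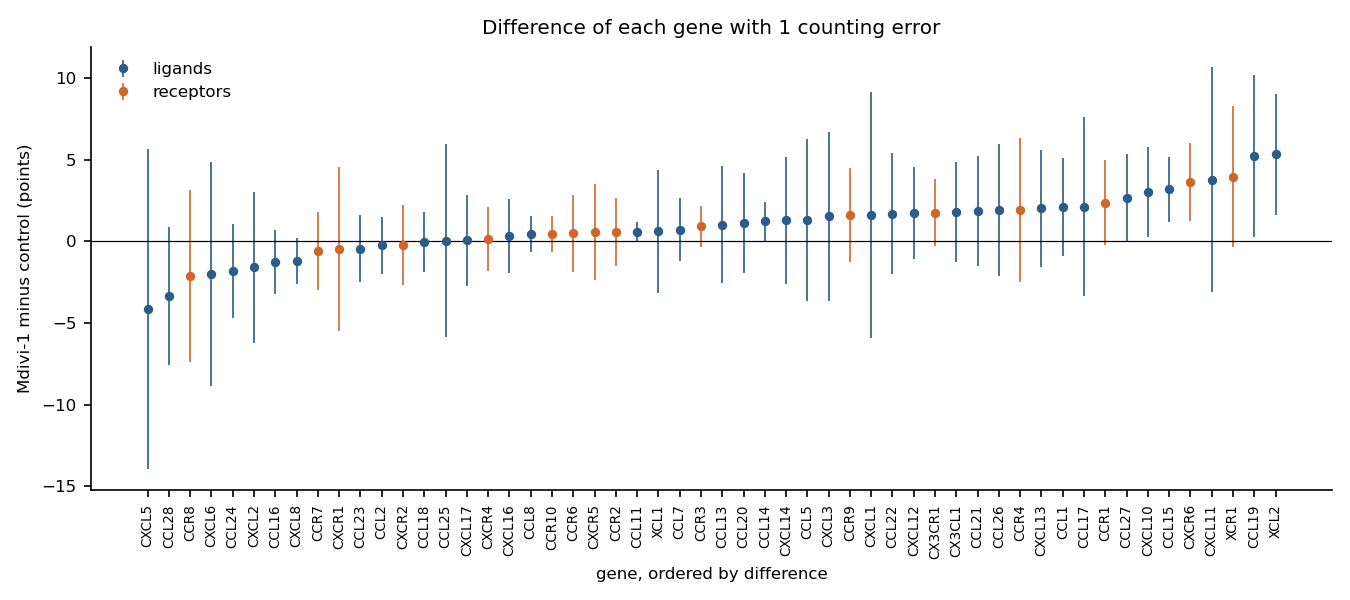
Difference in mean CpG methylation, Mdivi-1 minus control in percentage points (y axis), of 54 genes in order (x axis), with bars of 1 counting error. Differences run from -4.16 points in CXCL5 to 5.32 points in XCL2, and most bars cross 0.

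The 6 largest gains were those of XCL2, CCL19, XCR1, CXCL11, CXCR6 and CCL15, all within 2 counting errors with all positions counted. XCL2, a lymphotactin made by T and NK cells (chromosome 1, 168510170 to 168514533), was at 33.0% with DMSO and 38.3% with Mdivi-1, with 23 of 35 CpGs higher. Its difference of 5.32 points had an error of 3.69 points, and it was 0.518 points at a minimum of 20 reads, 2.62 points with pooled reads and 7.33 points with 1 strand of each CpG, the last with an error of 3.61 points and past 2 counting errors. XCL2 and its near-identical copy XCL1, at 40.9% and 41.5%, may exchange reads, so the value of each is uncertain. CCL19, a ligand of CCR7 in lymph nodes (chromosome 9, 34690263 to 34692618), was at 45.8% and 51.0%, with 15 of 19 CpGs higher. Its difference of 5.21 points had an error of 4.94 points and was 1.37 points at 20 reads and 2.09 points with pooled reads; its promoter, at 69.6% and 77.8%, had the largest promoter difference, 8.26 points with an error of 9.68 points. XCR1 differed by 3.95 points with an error of 4.31 points (1.59 points with pooled reads), CXCL11 by 3.78 points with an error of 6.88 points and CXCR6 by 3.63 points with an error of 2.39 points.

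The 6 largest losses were those of CXCL5, CCL28, CCR8, CXCL6, CCL24 and CXCL2, all within 1 counting error at the 10-read minimum. CXCL5, a neutrophil attractant (chromosome 4, 74864241 to 74865503), was at 24.7% with DMSO and 20.5% with Mdivi-1, with 24 of 38 CpGs lower and 6 higher. Its difference of -4.16 points had an error of 9.81 points, and at a minimum of 20 reads it was -8.51 points with an error of 4.96 points, past 1 counting error. Its annotated promoter, which extends beyond the window printed above, was at 14.2% and 5.96%, with 12 of 14 CpGs lower and 0 higher, a difference of -8.20 points with an error of 4.20 points. Coverage of the gene was 20.03 reads with DMSO and 27.5 with Mdivi-1. CCL28 differed by -3.36 points with an error of 4.21 points (-2.004 points at 20 reads), and its promoter by -5.21 points with an error of 5.58 points.

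The other losses were CCR8, a receptor of TH2 and regulatory T cells, at 29.7% and 27.5%, CXCL6 at 29.5% and 27.5%, CCL24, or eotaxin 2, at 29.5% and 27.7%, and CXCL2 at 29.7% and 28.2%. Their differences of -2.13, -2.003, -1.82 and -1.59 points had errors of 5.25, 6.83, 2.85 and 4.61 points. With pooled reads CCL24 was 0.453 points higher, and CXCL6 and CXCL2 differed by -4.998 and -3.60 points; at 20 reads CCR8 differed by -0.520 points. CXCL6 and CXCL2 have close copies among their neighbours, so reads could be split between them. CXCL5 lies in the same cluster, and its gene and promoter values above may carry the same limit. The third promoter by size of difference was that of CCL15, higher by 5.76 points with an error of 3.54 points.

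At the level of the single CpG, reads were tested with Fisher's exact test (two-sided), which compares these 2 libraries and not the conditions. None of the 1989 chemokine positions was called, a call needing a Benjamini-Hochberg adjusted p under 0.05 and a difference of 20 points or more, against 0.000634% of all 2523693 tested positions. At an unadjusted p under 0.05 there were 58 positions, 33 higher and 25 lower, 2.92% beside 2.02% of all positions. The smallest p was 0.00104 by Fisher's exact test (adjusted p 1), at an island CpG upstream of CXCL12 (chromosome 10, position 44881503, hg19) with 15 of 55 reads methylated in the control and 4 of 70 in the Mdivi-1 library. A second CXCL12 promoter CpG, 44881608, had 26 of 30 and 18 of 32 methylated reads, although the CXCL12 promoter as a whole was higher by 1.62 points. An exonic CpG of CXCL6 had 6 of 13 and 1 of 21. The CpGs of smallest p in the other direction lay in XCL2, with 8 of 65 and 31 of 99 reads at its promoter and 6 of 19 and 14 of 18 in an intron, and in an intron of XCR1, with 6 of 26 and 21 of 36.

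Genes that act with the chemokine system were described by counts, each measured as the family was. As background for each list, 64.9% of all genes were higher in the Mdivi-1 library, with a median difference of 0.335 points. Of 10 measured atypical receptors and other chemokines, 7 were higher and 3 lower in the Mdivi-1 library, with a median difference of 0.563 points. PPBP, a platelet chemokine of the chromosome 4 cluster, was at 3.32% and 0.231% over 9 CpGs, with 7 lower and 0 higher. Its difference of -3.09 points with an error of 1.51 points exceeded 2 counting errors, the only such gene in the 4 lists. Of all 29400 genes, 0.5% did so in either direction, and 18 genes in the lower direction. The PPBP levels are near 0, where the error is uncertain, and no other setting was run for this gene. MIF, a cytokine that binds CXCR4, was at 28.9% and 27.4%, a difference of -1.41 points with an error of 2.47 points. Of 30 genes of receptor signalling, 22 were higher and 8 lower, with a median of 0.538 points. GRK3, a kinase that desensitises receptors, went from 74.5 to 80.3% over 13 CpGs. RGS1, a brake on G protein signalling, went from 90.9 to 94.9% over 9 CpGs. Their differences of 5.75 and 4.03 points had errors of 2.88 and 3.66 points, and both were within 2 counting errors.

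Of 29 inducers of chemokine transcription, 17 were higher and 12 lower, with a median of 0.154 points. TLR3, a sensor of double-stranded RNA, was at 66.1% with DMSO and 74.6% with Mdivi-1 over 27 CpGs, a difference of 8.48 points with an error of 4.55 points. IRF7, an interferon regulatory factor, was at 66.5% and 69.2%, a difference of 2.65 points with an error of 2.89 points. Of 18 genes of chemokine processing and presentation, 12 were higher and 6 lower, with a median of 0.340 points. Among them, MMP14, a membrane protease, was at 84.9% and 87.0%, and TPST2, which sulfates receptor tyrosines, at 77.5% and 79.1%. The differences of MMP14 and TPST2, 2.09 and 1.59 points, had errors of 2.23 and 1.94 points. None of the genes of these lists met the rule of size.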

How the data were processed

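Methylated fraction and coverage of each position in both libraries were deposited by the authors in 1 table; per the submitters' processing notes reads were aligned with BSMAP (version not given) to hg19. The coverage columns were deposited as estimated counts, a few not whole. The control fraction deposited by the authors was whole at the deposited coverage for 33.3% of positions (tolerance 1e-06). Scaling the coverage by 1.233, the ratio of median coverages 37 and 30, made it whole, a step read from the values and not stated in the sources used here. Methylated reads were recovered through this scaling, and 10795 positions without recovered counts were left out.

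Positions with 10 reads in both libraries were kept, 2523693 in all. Symbols came from the promoter and gene annotation of the table, and 455 chemokine positions also carry another gene's annotation. On 38 CpGs both strands were measured. Genes were joined into a cluster when under 500 kb apart, and levels of a gene within an island class need 3 CpGs. Fisher tests were adjusted over all positions by Benjamini-Hochberg. Errors cover counting alone, and reads may share a PCR origin.

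The text names the 6 genes of largest gain and of largest loss, the 4 highest and 4 lowest, the 3 largest promoter differences, CXCR4, CXCL12, CXCL8, CCL2, CX3CL1, CX3CR1 and CXCL14, the 3 CpGs of smallest p in each direction and the 2 largest of each list. Among the genes the rule names, 1 is not reported here, although it stays in the counts. Other members are named to complete their cluster, after their values were seen. Members and lists were chosen with earlier results of these data known. Scripts were tested on simulated data. Alternatives were other coverage and CpG minimums, pooled reads, deposited fractions, removal of the deepest CpGs, centring, thinning and promoter or non-promoter CpGs; comma-separated annotation and 1 strand per CpG, like the 200-bp blocks and the cluster limits, were added after seeing the data. The tools were Matplotlib 3.10.9, Numba 0.67.0, SciPy 1.17.1, pandas 2.3.3 and NumPy 2.4.6 under Python 3.11.15.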

Additional observations from a re-analysis of the deposited data

How the results depend on the processing

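The family difference stayed within 2 counting errors of 0.677 points under all alternatives tried, and was lowest with pooled reads (0.0564 points, or -0.283 points in the ligands) and highest with the deposited fractions (0.865 points). The median gene difference lay between 0.458 points, when centred on all autosomal positions, and 1.16 points with the deposited fractions, and the median promoter difference was -0.187 points when centred. No gene met the rule of size and no CpG was called under any alternative run for them. Signs of single genes were less stable: 34 genes were higher and 21 lower at 20 reads, with 8 turned, 38 and 17 with pooled reads, with 8 turned, and 43 and 12 with the deposited fractions, with 3 turned. Of 26 genes under the naming rule, pooling turned 3 and promoter CpGs alone 3. No paired analysis was possible because each group has 1 library, and for the same reason no replicate could be left out. Mean coverages of 34.3 and 42.5 reads limit the precision of single CpGs.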
